A study of Mus musculus with 9 samples.

Results

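Brain tissue of 3 mouse libraries labelled as an intervention group was set against that of 3 libraries labelled as an experimental group, in a study of intracerebral haemorrhage. These are 6 of the 9 libraries of the series, and the other 3 form a control group. The 6 were chosen by their labels alone, and every gene with a level of at least 1 FPKM in 3 or more of them was tested, which kept 14296 of 33586 entries. FPKM is a count of sequenced fragments scaled by transcript length and by the mapped fragments of the library. The haemorrhage was made by injecting collagenase, an enzyme that digests vessel walls, and RNA was taken from tissue around the haematoma. The series title names miR-124 loaded on a tetrahedral nucleic acid nanomaterial as a treatment. The labels give neither the agent, dose and time of each group, nor the strain, sex and age of the mice, nor whether the control group carried a haemorrhage. They also do not say that the replicates are separate animals, so that p-values measure only the spread between these samples.

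Blood that leaves a vessel releases haemoglobin, whose heme is broken down by heme oxygenase in microglia and in macrophages that enter from the blood. Damaged cells also release nucleic acids that switch on interferon genes, and activated myeloid cells present antigen on MHC class II molecules. miR-124 is a microRNA abundant in neurons, where it lowers transcripts of other cell types, and it is also known to quieten microglia and macrophages in mice. In bulk tissue, fewer cells of a type and less RNA per cell cannot be told apart.

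Most measured members of several gene groups had lower means in the intervention than in the experimental libraries, namely 12 of 13 MHC class II pathway genes, 32 of 32 interferon response genes, 16 of 18 monocyte markers, 16 of 17 genes of scavenging and alternative activation and 19 of 20 endothelial markers. In the other direction, 11 of 14 genes that respond to glucocorticoids had higher means. So had 15 of 16 neuronal markers, 18 of 19 cholesterol synthesis genes, 15 of 18 mature oligodendrocyte genes and 25 of 25 nuclear respiratory chain genes. None of those 25 was without overlap, so that a count of means alone says little. Of the 18 mature oligodendrocyte genes 1 was without overlap, and intervention library 2 had 15 of them below every experimental library. These gene groups were chosen with earlier results of these data known. H2-Ab1, the class II beta chain, was the 1 gene that fell at a limma adjusted p under 0.05, and none rose. This is 0.00699% of tested genes lower and 0% higher. The differences were small for single genes, and 77 genes had lower and 7 higher means at an adjusted p under 0.1. At an unadjusted p under 0.05, 932 genes (6.52%) were lower and 414 (2.90%) higher. The 3 intervention libraries lay below all 3 experimental ones in 1184 tested genes (8.28%) and above them in 721 (5.04%). The median log2 difference over tested genes was 0.007, and 47.5% had a lower and 52.5% a higher mean in the intervention group.

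**Figure D1:**
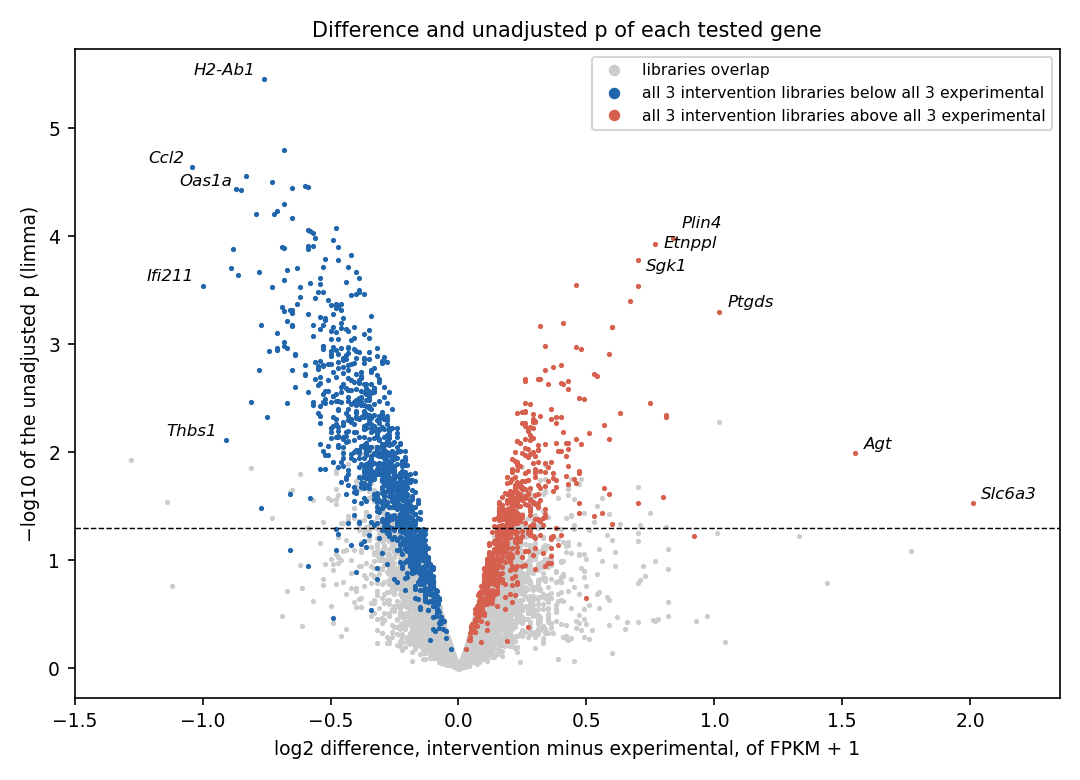
Each point is 1 of the 14296 tested genes, with the log2 difference of FPKM + 1 (intervention minus experimental) on the x axis and −log10 of the unadjusted limma p on the y axis. Blue points are the 1184 genes with all 3 intervention libraries lower, red points the 721 with all 3 higher, and the dashed line marks an unadjusted p of 0.05. H2-Ab1 has the smallest p.

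Gene lists of functions and cell types were used to describe these differences, 58 in all with 989 genes that have an entry. They were chosen with earlier results of these data known, so that their counts are a description and not a test. Counts below are over all members with an entry, tested or not, because a low gene could reach the filter through the group where it is higher. Over the 32377 entries above 0 in any of the 6 libraries, the intervention libraries lay wholly below in 5.95% and wholly above in 3.98%, and 48.7% had lower and 51.3% higher means. For tested genes the log2 difference is given with its standard error and the limma adjusted p.

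MHC class II molecules show peptides from engulfed proteins to helper T cells. H2-Ab1 had 2.45, 2.65 and 2.57 FPKM in intervention libraries 1 to 3, and 4.71, 5.06 and 5.26 FPKM in experimental libraries 1 to 3. The intervention libraries were alike and all well below the experimental ones, and the control libraries were lowest at 0.725, 0.50 and 0.645 FPKM. The mean was 2.56 ± 0.0990 FPKM in the intervention group and 5.01 ± 0.277 FPKM in the experimental group (SD, n = 3 each). The log2 difference of -0.76 ± 0.079 passed in limma (adjusted p = 0.0498). This call was lost in 14 of 16 alternative analyses, among them the omission of any 1 of the 9 libraries, with limma adjusted p of 0.0146 to 0.254 over the 16. H2-Ab1 lies on chromosome 17 at 34257689 to 34269419 on the plus strand (mm10, ENSMUSG00000073421.6).

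The alpha chain gene H2-Aa had 1.63, 1.81 and 1.10 FPKM in intervention libraries, against 3.53, 3.46 and 3.36 FPKM in experimental libraries (-0.83 ± 0.11, limma adjusted p = 0.0538). Intervention library 3 was lowest, and the groups did not overlap. H2-Eb1, the beta chain of the other class II molecule, had 3.14, 2.99 and 2.51 FPKM in intervention and 5.97, 5.81 and 6.57 FPKM in experimental libraries (-0.88 ± 0.14, limma adjusted p = 0.0628). Cd74 encodes the invariant chain that guides class II molecules to endosomes. It had 8.27, 11 and 8.97 FPKM in intervention and 18.7, 15.3 and 19.6 FPKM in experimental libraries (-0.86 ± 0.15, limma adjusted p = 0.0782).

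Of 13 class II pathway genes, 12 had lower means in the intervention group and 1 a higher mean, and in 9 the libraries did not overlap, all lower. The median log2 difference was -0.55 over the 9 tested and -0.32 over the 13. Ciita, the master activator of class II genes, lay under the filter in every library and was named after its values were seen. It had 0.0895, 0.0711 and 0.0610 FPKM in intervention and 0.137, 0.103 and 0.160 FPKM in experimental libraries, which also did not overlap. Class II chains are close relatives, and no source used here says how reads that fit more than 1 of them were divided.

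Class I molecules show peptides from inside the cell to cytotoxic T cells. Of 21 class I genes, 19 had lower means and 15 did not overlap, all of these lower, with a median of -0.25 over the 21. The heavy chain gene H2-D1 had 50.0, 42.2 and 39.2 FPKM in intervention and 56.8, 60.0 and 62.4 FPKM in experimental libraries (-0.44 ± 0.091, limma adjusted p = 0.102). The peptide transporter Tap1 had 2.06, 2.32 and 1.74 FPKM in intervention and 3.29, 3.23 and 3.33 FPKM in experimental libraries (-0.50 ± 0.11, limma adjusted p = 0.114). The groups were apart for both. Psmb10, an immunoproteasome subunit, had a higher mean, and its groups overlapped (0.060 ± 0.12, limma adjusted p = 0.945).

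The antiviral program was described next. Interferons bind their receptor and activate STAT and IRF factors, which switch on genes that sense or block viral RNA. Of 32 interferon response genes, 32 had lower means in the intervention group and 27 did not overlap (84.4%). The median was -0.50 over the 27 tested and -0.46 over the 32. Of the tested genes, 3 had no intervention library at 1 FPKM, so that they were tested through their experimental level.

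The log2 differences of tested members ran from -0.85 to -0.081, and those described here are the members with the smallest p. Oas1a, a synthetase activated by double-stranded RNA, had 3.55, 3.40 and 2.74 FPKM in intervention and 6.91, 5.88 and 7.10 FPKM in experimental libraries (-0.85 ± 0.12, limma adjusted p = 0.0538). Mx1, an antiviral GTPase, had 0.636, 0.694 and 0.465 FPKM in intervention and 1.42, 1.33 and 1.47 FPKM in experimental libraries (-0.59 ± 0.091). No intervention library reached 1 FPKM of Mx1, so that it was tested through its experimental level and its p is not given. For Oas1a and Mx1, intervention library 3 was lowest and the groups were apart. Ifitm3, a membrane protein that blocks virus entry, had 44.8, 38.7 and 37.6 FPKM in intervention and 63.1, 57.5 and 60.4 FPKM in experimental libraries (-0.57 ± 0.092, limma adjusted p = 0.0628). Irf7, which amplifies interferon transcription, had 3.98, 3.48 and 3.95 FPKM in intervention and 7.36, 5.53 and 6.41 FPKM in experimental libraries (-0.62 ± 0.12, limma adjusted p = 0.0858). Control libraries had at most 0.588 FPKM of Oas1a and 1.21 FPKM of Irf7. Oas1a and other members have near-identical relatives, with which reads may be shared.

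Many interferon genes carry an interferon-stimulated response element, whose core was searched as GAAA, any 2 bases and GAAA on both strands in the 120 bases before each RefSeq start (GRCm38.p6). The motif was in 401 of 32851 promoter windows (1.22%) and in 124 of the 10339 tested genes with a window (1.20%). Among the interferon response genes, 22 had a window and 6 of these held the motif, namely Ifit1, Isg15, Oas1a, Oas1g, Oas3 and Rsad2. Ifitm3 and Irf7, described above, had a window without it, so that genes with and without the motif had lower means. Windows of 3 of those that held it are printed 5′ to 3′ on the strand of the gene, with capitals marking matches. A match shows only the letters, and overlapping matches are joined.

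Oas1a, chr5:120907526-120907645, minus strand: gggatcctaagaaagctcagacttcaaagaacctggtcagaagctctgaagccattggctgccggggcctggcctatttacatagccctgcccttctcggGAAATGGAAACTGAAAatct

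Isg15, chr4:156200819-156200938, minus strand: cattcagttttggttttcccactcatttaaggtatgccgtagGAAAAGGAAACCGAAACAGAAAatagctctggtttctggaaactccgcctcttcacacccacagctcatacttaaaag

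Ifit1, chr19:34640769-34640888, plus strand: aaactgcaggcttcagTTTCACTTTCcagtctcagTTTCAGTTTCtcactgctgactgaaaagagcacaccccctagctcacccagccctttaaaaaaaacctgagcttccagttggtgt

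In Oas1a the joined matches begin at -20 from the start site, in Isg15 at -78 and in Ifit1 at -104. Isg15 and Ifit1 are shown for their motif and were not chosen by their difference.

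Class II promoters are known for a module that ends in an inverted CCAAT box, searched as ATTGG in the same 120 bases on both strands. It was in 21.3% of all windows and 28.2% of tested genes with a window, and in 7 of the 10 class II pathway genes with a window. The 7 include H2-Oa, which had a higher mean in intervention than in experimental libraries (0.818 against 0.712 FPKM). Ctss, H2-DMa and Ifi30, which had lower means, did not hold it. The windows of H2-Eb1 and H2-Aa are printed with matches on either strand in capitals, as the genes with among the largest class II differences. H2-Eb1 also has a later match, CCAAT, on the other strand. Only these letters were searched, not the whole module.

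H2-Eb1, chr17:34305747-34305866, plus strand: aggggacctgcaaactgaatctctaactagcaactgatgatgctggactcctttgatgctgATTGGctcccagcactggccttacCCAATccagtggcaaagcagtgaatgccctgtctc

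H2-Aa, chr17:34287824-34287943, minus strand: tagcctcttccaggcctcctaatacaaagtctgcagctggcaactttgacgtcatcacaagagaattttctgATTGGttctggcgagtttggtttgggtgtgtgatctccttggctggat

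Guanylate-binding proteins and immunity-related GTPases attack membranes around pathogens and respond to interferon gamma. Of 15 such genes, 14 had lower means and 12 did not overlap (80.0%), with a median of -0.43. Igtp had 3.71, 4.04 and 4.0 FPKM in intervention and 5.89, 5.40 and 6.58 FPKM in experimental libraries (-0.50 ± 0.10, limma adjusted p = 0.104). Of 17 nucleic acid sensors, 17 had lower means and 13 did not overlap, with a median of -0.28. Tlr13, a receptor for bacterial ribosomal RNA in mice, had 3.90, 4.14 and 4.15 FPKM in intervention and 5.62, 5.56 and 6.14 FPKM in experimental libraries (-0.42 ± 0.069, limma adjusted p = 0.0687). Ifi204, a DNA-binding protein of the interferon-inducible p200 family, had 2.0, 3.07 and 2.42 FPKM in intervention and 4.75, 4.22 and 6.09 FPKM in experimental libraries (-0.78 ± 0.14, limma adjusted p = 0.0750). Its relative Ifi211 had one of the largest log2 differences of all genes (-1.0 ± 0.18). Ifi211 met the filter only with its experimental libraries, so that its p is not given. It had 0.776, 1.81 and 1.37 FPKM in intervention and 4.23, 2.65 and 3.99 FPKM in experimental libraries, so that the groups were apart but uneven. These relatives may share reads.

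Chemokines draw leukocytes into tissue. Ccl2, the main attractant of monocytes, had 2.99, 3.18 and 2.62 FPKM in intervention and 5.36, 8.07 and 8.04 FPKM in experimental libraries (-1.04 ± 0.14, limma adjusted p = 0.0538). Experimental library 1 was the lowest of its group yet above every intervention library, and without it Ccl2 passed in limma (adjusted p = 0.00945, with 0.00945 to 0.254 over the 16 alternatives). Ccl7, its neighbour in the same gene cluster, had 1.15, 0.917 and 0.570 FPKM in intervention and 2.16, 2.25 and 1.88 FPKM in experimental libraries (-0.73 ± 0.13). Too few intervention libraries reached 1 FPKM of Ccl7 to meet the filter. It was tested through its experimental level, and its p is not given. Cxcl16 and the interferon-induced Cxcl10 were also apart, with differences of -0.42 ± 0.079 and -0.64 ± 0.14 (limma adjusted p = 0.0837 and 0.127). Of 22 chemokine genes, 19 had lower means and 10 did not overlap, with a median of -0.27. Cxcl14, made by neurons and other resident cells, overlapped, at 56.5, 47.9 and 52.6 FPKM in intervention and 52.2, 50.5 and 49.5 FPKM in experimental libraries (0.041 ± 0.094).

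Receptors and cytokines were lower in mean too. Of 11 chemokine receptor genes, 11 had lower means and 8 did not overlap, with a median of -0.36. Ccr1 had 0.922, 1.45 and 1.07 FPKM in intervention and 2.21, 2.07 and 2.13 FPKM in experimental libraries (-0.55 ± 0.10). Ccr1 met the filter only with its experimental libraries, so that its p is not given. Of 29 cytokine and cytokine receptor genes, 24 had lower means and 14 did not overlap. Tnfrsf1b, the type 2 receptor of tumour necrosis factor, had 4.77, 5.11 and 4.30 FPKM in intervention and 7.51, 7.13 and 8.20 FPKM in experimental libraries (-0.59 ± 0.081, limma adjusted p = 0.0538). Il10ra, a receptor for the anti-inflammatory interleukin 10, was also apart (-0.39 ± 0.071, limma adjusted p = 0.0831), while the receptor gene Lifr overlapped (0.034 ± 0.086).

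For 2 classic cytokines the level was too low to be tested with the rest. Il1b, which encodes interleukin 1 beta, had 0.343, 0.405 and 0.552 FPKM in intervention and 1.61, 1.04 and 0.839 FPKM in experimental libraries. The groups were apart, with an exact two-sided permutation p of 0.10, the smallest that 3 against 3 libraries allow. Tnf had 0.416, 0.626 and 0.169 FPKM in intervention and 0.426, 0.343 and 0.503 FPKM in experimental libraries, and the groups overlapped (exact two-sided permutation p = 0.800).

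Monocytes enter from blood and turn into macrophages that clear debris. Of 18 monocyte marker genes, 16 had lower means in the intervention group and 15 did not overlap (83.3%). The median was -0.59 over the 12 tested and -0.45 over the 18. Lyz2, the lysozyme of myeloid cells, had 104, 113 and 82.3 FPKM in intervention and 168, 186 and 164 FPKM in experimental libraries (-0.79 ± 0.12, limma adjusted p = 0.0628). Ms4a6c had 5.08, 5.11 and 4.12 FPKM in intervention and 9.95, 7.61 and 8.0 FPKM in experimental libraries (-0.72 ± 0.11, limma adjusted p = 0.0628). Both were lowest in intervention library 3 and far above the control libraries, which had 6.87, 5.81 and 6.34 FPKM of Lyz2. The matrix gene Vcan, which other cells also make, overlapped and had a higher mean (0.10 ± 0.12).

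Ccr2, the receptor for Ccl2 and a defining marker of inflammatory monocytes, was under the filter and is named after its values were seen. It had 0.321, 0.570 and 0.690 FPKM in intervention and 1.24, 0.721 and 1.31 FPKM in experimental libraries, without overlap. In the control libraries it averaged 0.0630 FPKM.

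Scavenger receptors take up modified lipids and debris. Of 17 genes of scavenging and alternative macrophage activation, 16 had lower means and 9 did not overlap. Their median was -0.56 over the 11 tested and -0.27 over the 17. The receptor gene Msr1 had 2.18, 2.25 and 1.87 FPKM in intervention and 3.91, 3.72 and 3.43 FPKM in experimental libraries (-0.60 ± 0.082, limma adjusted p = 0.0538). Tgfbi, a matrix protein induced by TGF-beta, had 5.30, 6.65 and 6.47 FPKM in intervention and 11.7, 9.89 and 10.9 FPKM in experimental libraries (-0.73 ± 0.10, limma adjusted p = 0.0538). Intervention library 1 was lowest for Tgfbi, and library 3 for Msr1. Cd36, a fatty acid and debris receptor, had 1.85, 2.16 and 2.12 FPKM in intervention and 3.58, 4.61 and 4.45 FPKM in experimental libraries (-0.77 ± 0.16, limma adjusted p = 0.101). The haemoglobin receptor Cd163, also named after its values were seen, stayed under 0.5 FPKM in all 6 libraries.

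Other myeloid surface genes stood among those with the smallest p. Adam8, a membrane protease of leukocytes, had 3.98, 4.23 and 3.48 FPKM in intervention and 6.84, 6.42 and 7.31 FPKM in experimental libraries (-0.68 ± 0.086, limma adjusted p = 0.0538). Lilr4b, an inhibitory receptor of myeloid cells that has close relatives, had 1.89, 2.01 and 1.64 FPKM in intervention and 3.72, 3.08 and 3.58 FPKM in experimental libraries (-0.65 ± 0.089, limma adjusted p = 0.0538). Both were apart between the groups and low in the control libraries, which had at most 0.522 FPKM of Adam8 and 0.0670 FPKM of Lilr4b.

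**Figure D2:**
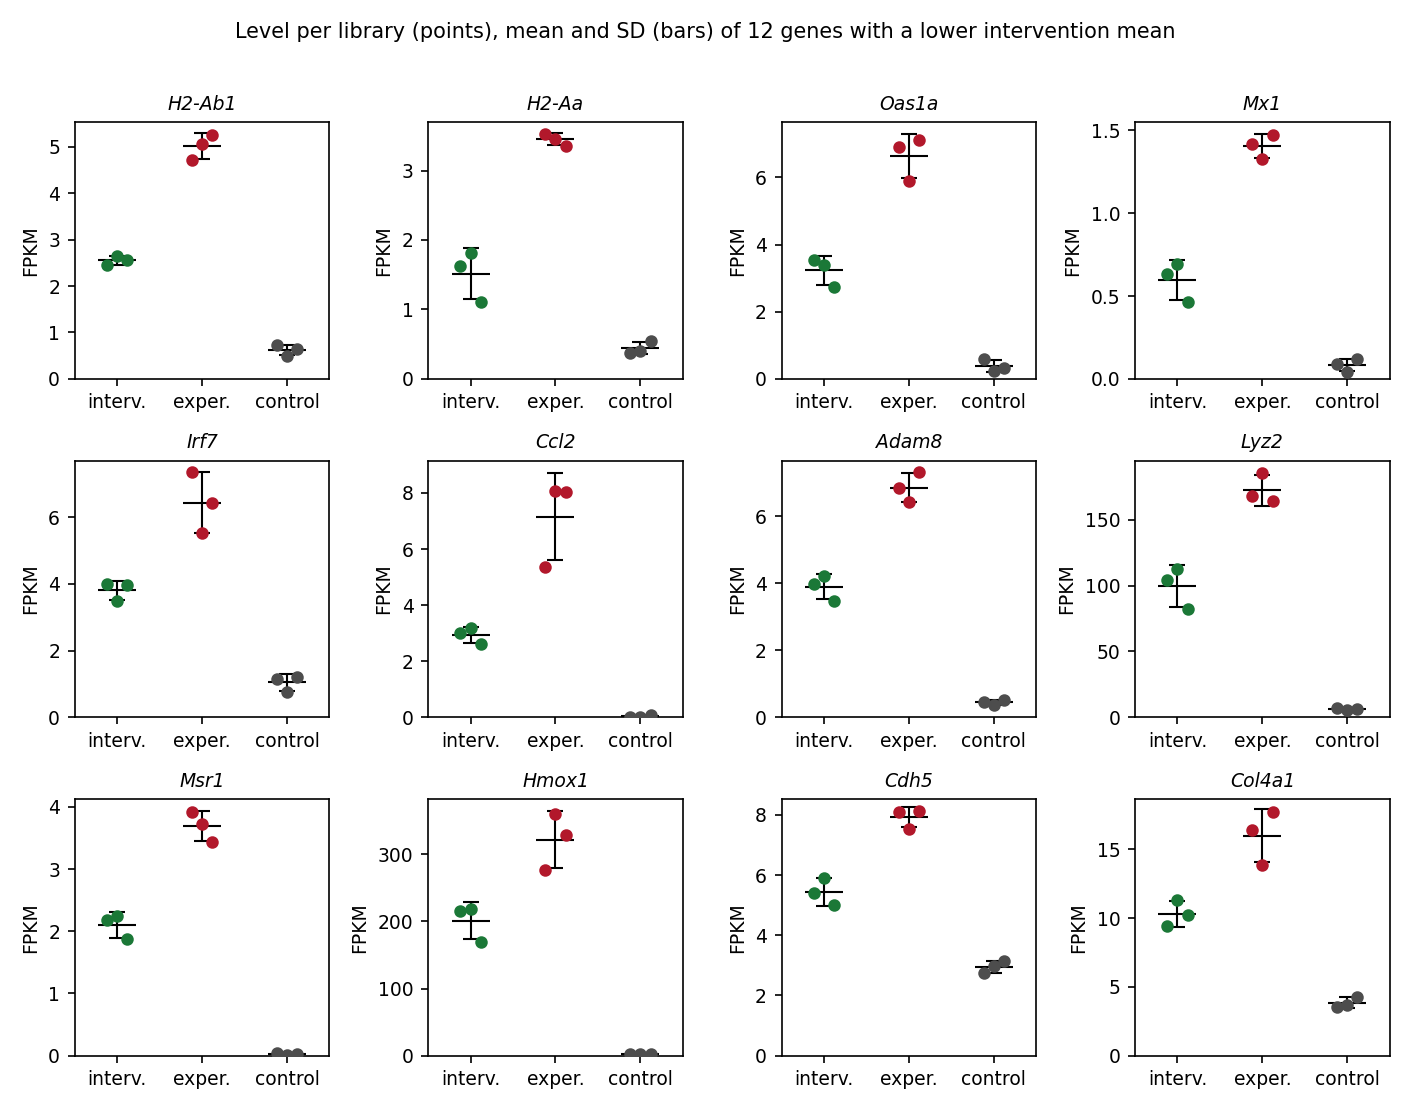
FPKM on linear y axes that start at 0 for 12 genes with lower intervention means, with 1 point per library, a long bar for the mean and whiskers for the SD (n = 3 per group). In each panel the 3 intervention libraries lie below the 3 experimental and above the 3 control libraries.

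Resident and phagocytic myeloid genes differed less and less evenly. Of 25 genes of phagocytic and lipid-laden macrophages, 23 had lower means and 12 did not overlap, with a median of -0.27. Lgals3, the galectin of phagocytes, had 14.4, 14.7 and 9.36 FPKM in intervention and 21.7, 26.8 and 24 FPKM in experimental libraries (-0.89 ± 0.15, limma adjusted p = 0.0736). Gpnmb, a glycoprotein of lysosome-rich macrophages, had 5.76, 6.11 and 4.81 FPKM in intervention and 8.33, 9.35 and 10.9 FPKM in experimental libraries (-0.68 ± 0.11, limma adjusted p = 0.0628). For both, library 3 of the intervention group was lowest. Apoe, a lipid carrier also made by astrocytes, overlapped and had a higher mean (0.16 ± 0.11, limma adjusted p = 0.767).

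Of 16 markers of homeostatic microglia, 13 had lower means and 5 did not overlap, with a median of -0.19. Fcrls, a microglial Fc receptor-like gene of mice, had 81.4, 71.3 and 64.3 FPKM in intervention and 95.9, 96.2 and 111 FPKM in experimental libraries (-0.48 ± 0.10, limma adjusted p = 0.105). Csf1r, the receptor for a growth factor that microglia need, had 52.7, 52.7 and 43.7 FPKM in intervention and 55.6, 59.5 and 69.8 FPKM in experimental libraries (-0.30 ± 0.11, limma adjusted p = 0.354). The groups were apart for both, by a narrow gap for Csf1r. Sparc, which astrocytes and vessels also express, ran the other way and overlapped (0.35 ± 0.30).

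Complement and Fc receptors tag and bind debris. Of 20 complement genes, 17 had lower means and 9 did not overlap, and of 11 Fc receptor and adaptor genes 11 had lower means and 8 did not overlap. Their medians were -0.28 and -0.35. C3ar1, a receptor for a complement fragment, had 6.67, 7.82 and 5.56 FPKM in intervention and 10.1, 10.3 and 12.8 FPKM in experimental libraries (-0.65 ± 0.13, limma adjusted p = 0.101). Fcgr4, an activating antibody receptor, had 3.90, 3.80 and 3.46 FPKM in intervention and 5.34, 5.27 and 5.97 FPKM in experimental libraries (-0.47 ± 0.078, limma adjusted p = 0.0703). Neither overlapped. Cd59a, which shields cells from complement, overlapped (0.18 ± 0.21).

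Of 24 lysosomal genes, 22 had lower means, 11 lay wholly lower and 1 wholly higher. The protease gene Ctsc had 9.25, 10.1 and 8.6 FPKM in intervention and 13.7, 13.3 and 16.1 FPKM in experimental libraries (-0.57 ± 0.089, limma adjusted p = 0.0628). The gene that lay higher was Ctsf, a cathepsin, at 11.8, 13.4 and 12.3 FPKM in intervention and 10.9, 11.6 and 11.7 FPKM in experimental libraries (0.12 ± 0.069, limma adjusted p = 0.668). Of 8 NADPH oxidase genes, which make the oxidative burst, 8 had lower means and 4 did not overlap. The catalytic subunit gene Cybb had 0.937, 1.11 and 0.696 FPKM in intervention and 1.97, 1.68 and 2.25 FPKM in experimental libraries (-0.63 ± 0.12). Cybb met the filter only with its experimental libraries, so that its p is not given.

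Toll-like receptor and inflammasome genes had small median differences. Yet 36.4% and 42.9% of these lists lay wholly lower, against 5.95% of all entries. Of 22 genes of Toll-like receptors and NF-kB signalling, 19 had lower means and 8 did not overlap, with a median of -0.15. Tlr4, the receptor for bacterial endotoxin, had 0.662, 0.937 and 0.743 FPKM in intervention and 1.25, 1.26 and 1.62 FPKM in experimental libraries (-0.42 ± 0.11). No intervention library reached 1 FPKM of Tlr4, so that it too was tested through its experimental level. Nfkbia, the inhibitor of NF-kB, had a higher mean with overlap (0.13 ± 0.079). Of 14 inflammasome genes, 12 had lower means and 6 did not overlap, such as the pore protein gene Gsdmd (-0.27 ± 0.090, limma adjusted p = 0.326).

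Markers of the vessel wall were also lower in mean. Of 20 endothelial markers, 19 had lower means in the intervention group and 17 did not overlap (85.0%), with a median of -0.30. Cdh5, the cadherin of endothelial junctions, had 5.39, 5.91 and 5.0 FPKM in intervention and 8.09, 7.54 and 8.13 FPKM in experimental libraries (-0.47 ± 0.077, limma adjusted p = 0.0628). Pecam1, an adhesion molecule of endothelium, had 5.87, 6.71 and 6.23 FPKM in intervention and 10.3, 8.08 and 9.17 FPKM in experimental libraries (-0.48 ± 0.093, limma adjusted p = 0.0919). Both lay between the experimental and the control libraries, which had 2.74, 2.99 and 3.13 FPKM of Cdh5. Vwf, which tethers platelets, and the VEGF receptor gene Kdr differed by -0.45 ± 0.089 and -0.45 ± 0.10 (limma adjusted p = 0.0979 and 0.129). The lipid transporter Mfsd2a of the barrier ran the other way with overlap (0.12 ± 0.10).

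Of 15 pericyte and smooth muscle genes, 15 had lower means, yet 4 did not overlap, such as Rgs5, a marker of pericytes (-0.41 ± 0.084, limma adjusted p = 0.101). Of 16 leukocyte adhesion genes, 16 had lower means and 13 did not overlap. Icam1, the endothelial ligand of leukocyte integrins, had 2.86, 2.43 and 2.40 FPKM in intervention and 3.50, 3.84 and 4.05 FPKM in experimental libraries (-0.43 ± 0.094, limma adjusted p = 0.125).

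Matrix genes were lower in mean as well. Of 30 collagen and matrix genes, 28 had lower means and 13 did not overlap, with a median of -0.29. Col4a1, a chain of the basement membrane collagen, had 9.45, 11.3 and 10.2 FPKM in intervention and 16.4, 13.9 and 17.7 FPKM in experimental libraries (-0.58 ± 0.10, limma adjusted p = 0.0801). Thbs1, the thrombospondin of platelets and wound tissue, had 2.33, 5.08 and 6.54 FPKM in intervention and 11, 6.70 and 9.99 FPKM in experimental libraries (-0.91 ± 0.27, limma adjusted p = 0.255). Its difference was large but uneven, and intervention library 3 lay just under experimental library 2. Of 18 matrix protease and plasminogen genes, 13 had lower means and 8 did not overlap. The inhibitor gene Timp1 had 13.7, 12.1 and 8.75 FPKM in intervention and 16.7, 19.9 and 21.2 FPKM in experimental libraries (-0.71 ± 0.15, limma adjusted p = 0.123).

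Astrocytes that react to injury enlarge their filaments and secrete immune factors. Of 33 reactive astrocyte genes, 29 had lower means and 11 did not overlap, with a median of -0.31. Gfap, their filament protein, had 493, 449 and 344 FPKM in intervention and 393, 693 and 549 FPKM in experimental libraries, and the groups overlapped (-0.32 ± 0.21, limma adjusted p = 0.747). Steap4, a metal reductase, was apart at 1.26, 1.62 and 0.758 FPKM in intervention and 2.07, 3.06 and 2.87 FPKM in experimental libraries (-0.74 ± 0.16). Steap4 met the filter only with its experimental libraries, so that its p is not given. Aqp4, the water channel of astrocyte endfeet, had 45.3, 46.1 and 42.4 FPKM in intervention and 41.8, 63.4 and 63.0 FPKM in experimental libraries, also with overlap (-0.30 ± 0.16, limma adjusted p = 0.654). For Gfap and Aqp4 it was experimental library 1 that lay among or below the intervention libraries.

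Astrocyte markers that are not tied to reactivity did not share this. Of 16 astrocyte markers, 7 had lower and 9 higher means, and the 4 whose libraries did not overlap lay higher in the intervention group. The aldolase gene Aldoc had 312, 283 and 304 FPKM in intervention and 260.0, 270.0 and 235 FPKM in experimental libraries (0.23 ± 0.078, limma adjusted p = 0.330). The list median of 0.005 changed sign in 2 of 16 alternatives.

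Heme and iron genes handle the products of spilled blood. Hmox1, heme oxygenase 1, had 215, 218 and 169 FPKM in intervention and 276, 359.7 and 329 FPKM in experimental libraries (-0.68 ± 0.13, limma adjusted p = 0.0919). The groups were apart, and the control libraries had 2.61, 2.31 and 1.96 FPKM. Slc40a1, the iron exporter, had 3.09, 3.43 and 3.11 FPKM in intervention and 4.52, 4.71 and 4.41 FPKM in experimental libraries (-0.40 ± 0.069, limma adjusted p = 0.0750). Tfrc, the transferrin receptor that imports iron, lay higher, at 13.4, 13.8 and 16.3 FPKM in intervention and 13, 11.4 and 12.2 FPKM in experimental libraries (0.23 ± 0.095, limma adjusted p = 0.489). Of 23 heme and iron genes, 18 had lower means, with 7 wholly lower and 1 wholly higher, and the median was -0.12. The ferritin gene Ftl1 had 734, 587 and 484 FPKM in intervention and 768, 899.6 and 802 FPKM in experimental libraries (-0.47 ± 0.14, limma adjusted p = 0.247).

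Other stress lists were counted in the same way. Of 24 antioxidant and ferroptosis genes, 7 lay wholly lower and 1 wholly higher, and Slc7a11, the cystine importer, differed by -0.30 ± 0.094 (limma adjusted p = 0.283). Of 22 apoptosis and necroptosis genes 7 lay wholly lower, of 22 hypoxia and glycolysis genes 3 lay wholly lower and 2 wholly higher, and of 20 endoplasmic reticulum stress genes 2 lay on each side. Of 14 cytosolic heat shock genes, 3 lay wholly higher and none wholly lower, among them Hspa8, the constitutive Hsp70 (0.15 ± 0.072, limma adjusted p = 0.569).

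Of 28 proliferation genes, 28 had lower means and 10 did not overlap, with a median of -0.36. The replication helicase gene Mcm6 had 4.13, 4.54 and 4.13 FPKM in intervention and 5.95, 6.20 and 6.31 FPKM in experimental libraries (-0.44 ± 0.079, limma adjusted p = 0.0801). Ccnd1, the cyclin that starts the cell cycle, had 20.1, 19.2 and 17.8 FPKM in intervention and 23, 25.8 and 31.2 FPKM in experimental libraries (-0.46 ± 0.11, limma adjusted p = 0.167). Nes, a filament of progenitors and reactive cells from the growth factor list, had 5.35, 5.27 and 4.87 FPKM in intervention and 7.48, 7.6 and 9.30 FPKM in experimental libraries (-0.56 ± 0.089, limma adjusted p = 0.0628).

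**Figure D3:**
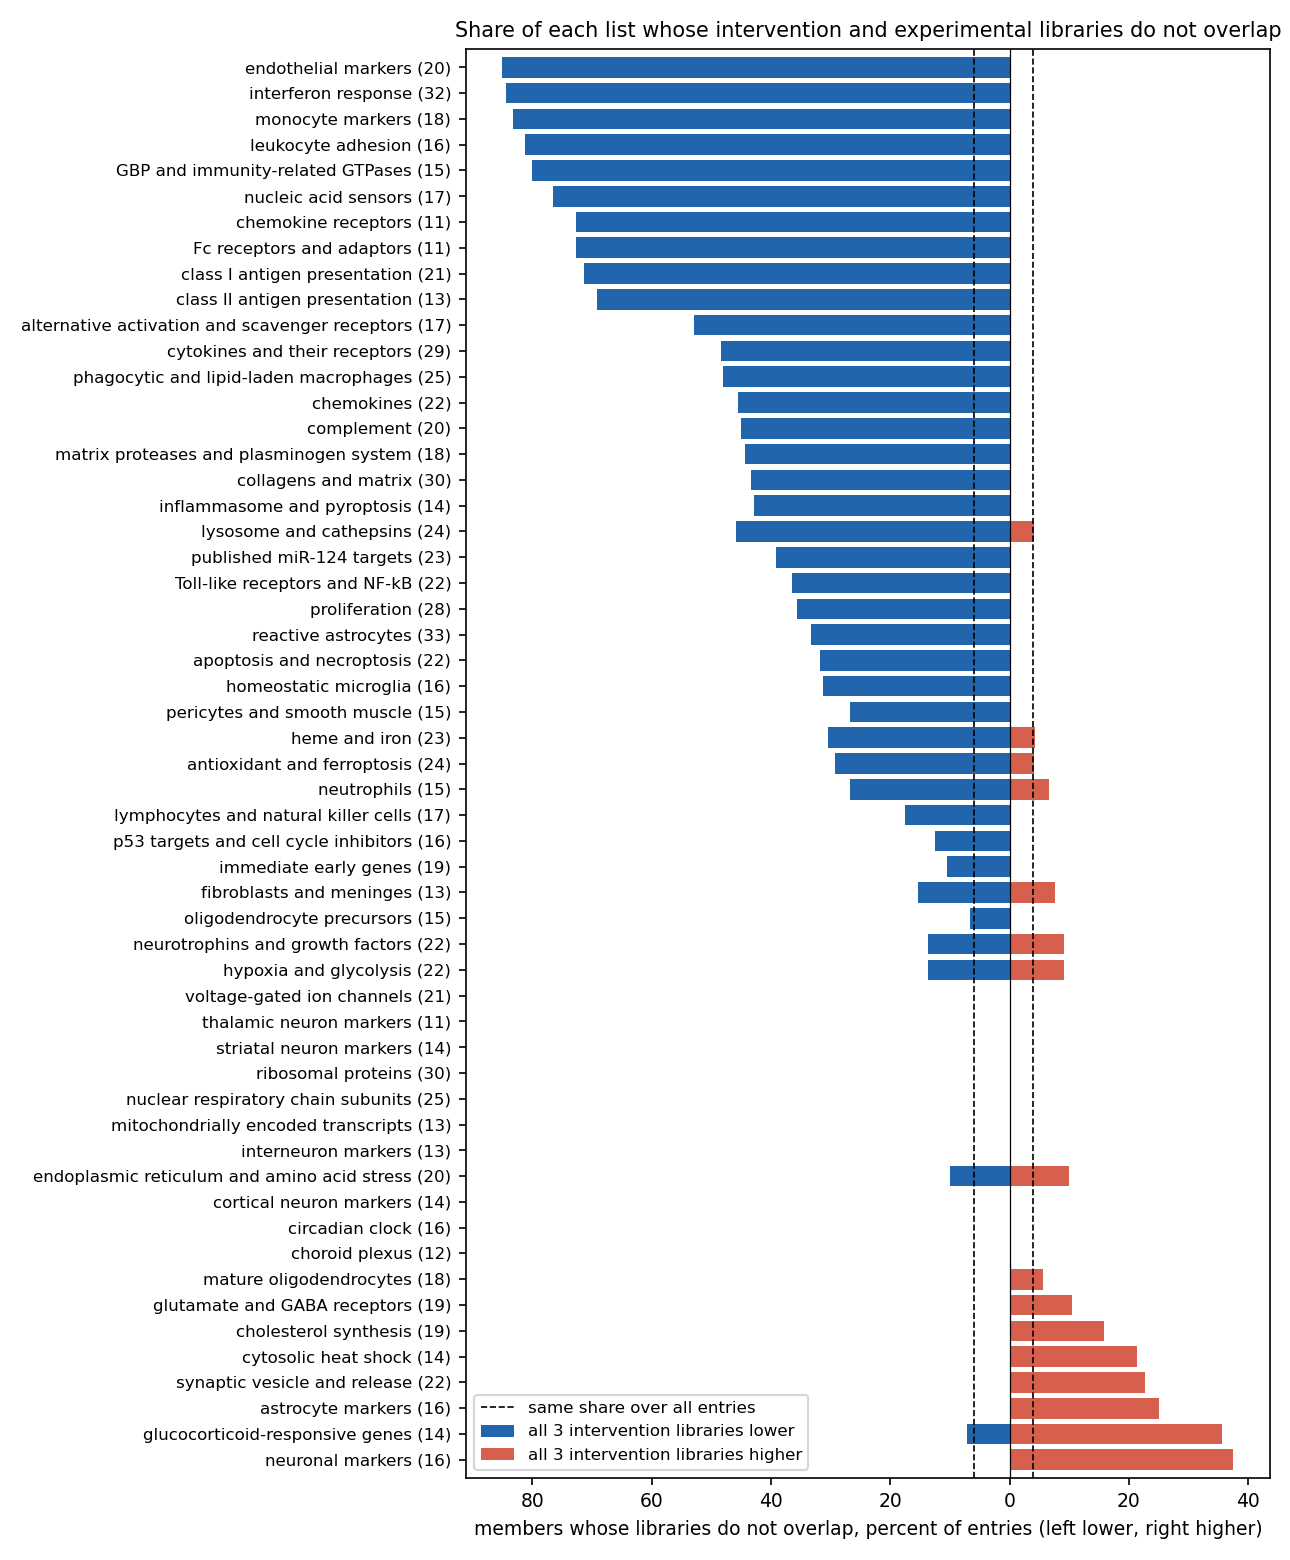
Bars give the percent of entries in each list of at least 10 entries (number in brackets) whose 3 intervention libraries lie wholly below (blue, to the left) or wholly above (red, to the right) the 3 experimental libraries. Dashed lines mark the 5.95% and 3.98% of all entries. Endothelial, interferon and monocyte lists stand at 85.0%, 84.4% and 83.3% lower, and neuronal markers at 37.5% higher.

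Genes whose intervention libraries lay wholly above the experimental ones were fewer than those wholly below, 721 against 1184 of the tested genes. Sgk1, a kinase induced by serum and glucocorticoids, had 36.1, 31.1 and 42.0 FPKM in intervention and 21.2, 21.3 and 23.2 FPKM in experimental libraries (0.70 ± 0.12, limma adjusted p = 0.0703). The control libraries, at 37.6, 31.6 and 30.3 FPKM, stood at the intervention level. Plin4, a perilipin that coats lipid droplets, had 1.42, 1.62 and 2.08 FPKM in intervention and 0.365, 0.609 and 0.548 FPKM in experimental libraries (0.84 ± 0.13). No experimental or control library reached 1 FPKM of Plin4, so that it was tested through its intervention level and its p is not given.

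Glucocorticoids act through a nuclear receptor that induces these genes in many tissues. Tsc22d3, which encodes the anti-inflammatory protein GILZ, had 21.9, 20.2 and 23.5 FPKM in intervention and 18, 16.8 and 15.4 FPKM in experimental libraries (0.37 ± 0.085, limma adjusted p = 0.135). Sult1a1, a sulfotransferase, had 9.02, 8.44 and 7.28 FPKM in intervention and 5.34, 4.74 and 5.2 FPKM in experimental libraries (0.60 ± 0.12, limma adjusted p = 0.101). Of the 14 glucocorticoid-responsive genes, 11 had higher means, with 5 wholly higher (35.7%) and 1 wholly lower, and the median was 0.15. The 1 wholly lower was Cdkn1a, a cell cycle inhibitor that p53 also induces (-0.21 ± 0.069, limma adjusted p = 0.302). This was the 1 list of the 56 with 5 or more tested members whose mean level in each intervention library lay above that in each experimental library. Plin4, which reached the filter through the intervention libraries alone, is among its members, and the mean was not taken without it.

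The glucocorticoid response element was searched as GNACA, any 3 bases and TGTNC on both strands in the 250 bases before each start, and was in 127 of 32851 windows (0.387%). Among 13 glucocorticoid-responsive genes with a window, 1 held it, Sgk1, and the stretch around it is printed with the match in capitals, which begins at -188.

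Sgk1, chr10:21993672-21993744, plus strand: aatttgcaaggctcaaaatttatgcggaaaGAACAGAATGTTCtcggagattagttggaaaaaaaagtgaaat

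Other genes with higher means came from several cell types. Etnppl, an astrocyte enzyme that breaks down phosphoethanolamine, had 8.99, 9.39 and 8.30 FPKM in intervention and 4.03, 5.60 and 4.83 FPKM in experimental libraries (0.77 ± 0.12, limma adjusted p = 0.0628). Ptgds, the prostaglandin D synthase of meninges and oligodendrocytes, had 301, 254 and 287 FPKM in intervention and 109, 199 and 121 FPKM in experimental libraries (1.02 ± 0.20, limma adjusted p = 0.0927). Without experimental library 2, the highest of its group, Ptgds passed in limma (adjusted p = 0.0342, with 0.0342 to 0.355 over the 16 alternatives). Arrdc2, an arrestin-like adaptor, had 7.2, 5.12 and 7.66 FPKM in intervention and 4.0, 3.67 and 3.66 FPKM in experimental libraries (0.67 ± 0.13, limma adjusted p = 0.0894).

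Among the genes with the largest positive differences, some were uneven. Slc6a3, the dopamine transporter of midbrain neurons, had 9.22, 3.77 and 3.02 FPKM in intervention and 0, 1.21 and 0.365 FPKM in experimental libraries (2.01 ± 0.78, limma adjusted p = 0.433). The control libraries had 8.44, 0 and 8.64 FPKM, a spread as wide as any difference between the groups. Agt, angiotensinogen, which astrocytes of deep brain regions express most, had 52.5, 49.1 and 32.8 FPKM in intervention and 6.47, 29.0 and 15.1 FPKM in experimental libraries (1.55 ± 0.48, limma adjusted p = 0.284). Ctxn3, a cortexin, had 3.31, 2.67 and 4.04 FPKM in intervention and 0.723, 1.99 and 1.85 FPKM in experimental libraries (0.81 ± 0.22, limma adjusted p = 0.205). Slc6a3 and Ctxn3 met the filter only with their intervention libraries, which favoured a high intervention value.

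**Figure D4:**
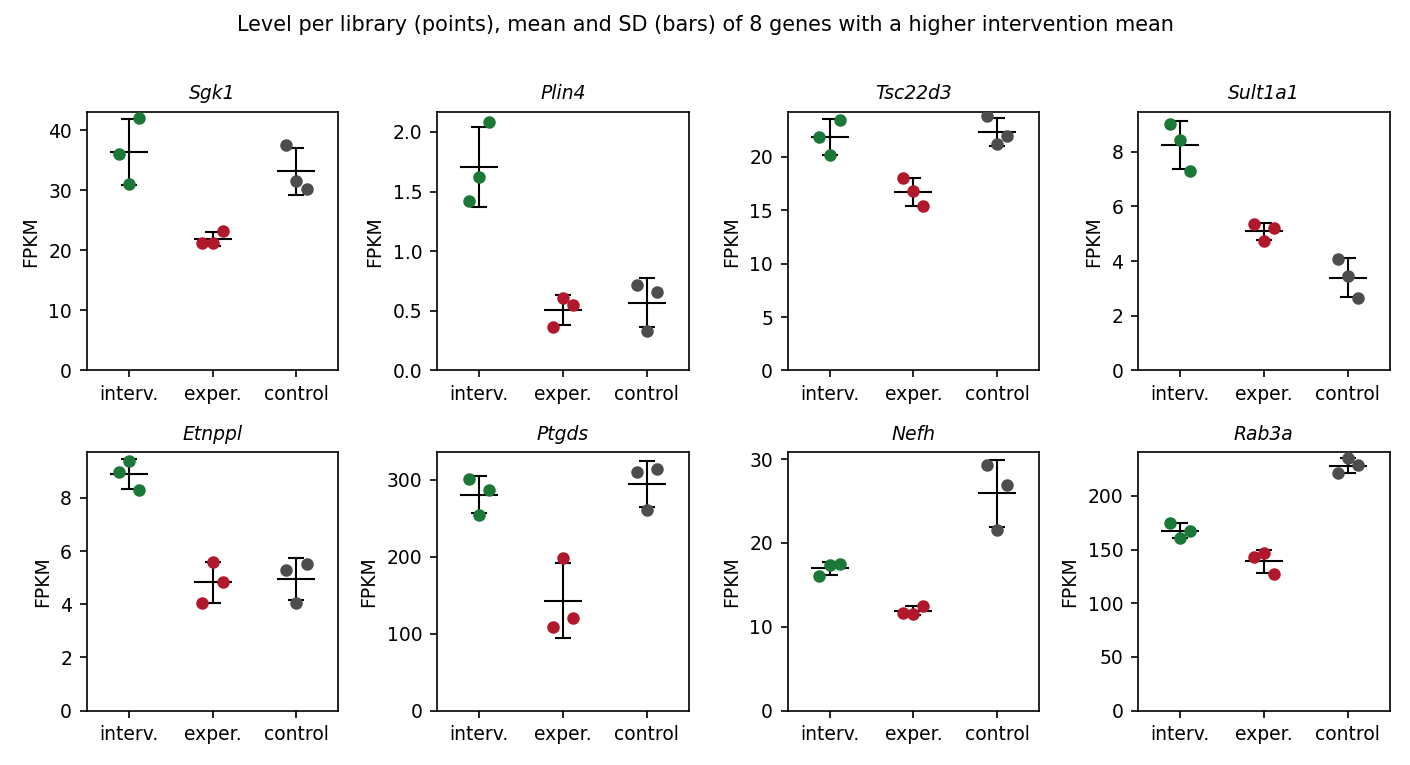
FPKM on linear y axes that start at 0 for 8 genes with higher intervention means, with 1 point per library, a long bar for the mean and whiskers for the SD (n = 3 per group). The 3 intervention libraries lie above the 3 experimental libraries in each panel, and for Sgk1, Tsc22d3 and Ptgds they lie near the control libraries.

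Neuronal lists differed in direction. Of 14 cortical neuron markers, 9 had lower means and none was without overlap, with a median of -0.035. Of 19 immediate early genes, which neuronal activity induces, 13 had lower means and 2 lay wholly lower, with a median of -0.069. Of 16 neuronal markers, 15 had higher means and 6 did not overlap, with a median of 0.16. The neurofilament gene Nefh had 16.1, 17.4 and 17.5 FPKM in intervention and 11.7, 11.5 and 12.5 FPKM in experimental libraries (0.48 ± 0.10, limma adjusted p = 0.123). It was even within each group, and higher still in control libraries, at 29.3, 21.5 and 26.9 FPKM. Tubb3, the tubulin of neurons, had 151, 146 and 126 FPKM in intervention and 101, 119 and 119 FPKM in experimental libraries (0.32 ± 0.11, limma adjusted p = 0.334). Rbfox3, which encodes the nuclear marker NeuN, had 23.4, 23.5 and 29.1 FPKM in intervention and 30.1, 21.7 and 22.2 FPKM in experimental libraries, and overlapped (0.044 ± 0.16). Camk2a, a kinase of excitatory neurons, was the member that ran the other way, and it overlapped (-0.23 ± 0.22).

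Other neuronal genes stood among those with the smallest p of all genes with higher means. Cbln2, a secreted organizer of synapses, had 7.99, 8.80 and 8.75 FPKM in intervention and 6.55, 5.55 and 5.66 FPKM in experimental libraries (0.46 ± 0.083, limma adjusted p = 0.0801). Sez6l2, a neuronal membrane protein, had 66.9, 65.3 and 68.5 FPKM in intervention and 50.3, 54.7 and 54.7 FPKM in experimental libraries (0.32 ± 0.066, limma adjusted p = 0.101). Tceal6, a relative of transcription elongation factors, had 34.6, 35.0 and 33.6 FPKM in intervention and 24.8, 28.3 and 24.3 FPKM in experimental libraries (0.41 ± 0.081, limma adjusted p = 0.101). All were tight within the groups.

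Of 22 synaptic vesicle genes, 17 had higher means and 5 did not overlap. Rab3a, a GTPase of vesicle release, had 175, 161 and 167 FPKM in intervention and 143, 147 and 127 FPKM in experimental libraries (0.27 ± 0.078, limma adjusted p = 0.227). Of 19 glutamate and GABA receptor genes 12 had higher means and 2 did not overlap, and of 21 voltage-gated channel genes 14 had higher means and none was without overlap. The medians of these receptor and channel lists, 0.047 and 0.062, changed sign in 2 of 16 alternatives each.

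Of 19 genes of cholesterol synthesis, 18 had higher means and 3 did not overlap, such as the sterol sensor partner Insig1 (0.22 ± 0.085, limma adjusted p = 0.417). The 25 nuclear genes of the respiratory chain had 25 higher means and a median of 0.10, yet none was without overlap. Intervention library 1 had 20 of the 25 above every experimental library, against 2 in library 2 and 13 in library 3. Of 18 genes of mature oligodendrocytes, 15 had higher means and 1 did not overlap. Library 2 went the other way there, with 15 members below every experimental library, while libraries 1 and 3 had 17 and 11 above. Over all tested genes, 25.7%, 32.1% and 23.6% lay above every experimental library in intervention libraries 1 to 3. The shares below every experimental library were 30.7%, 21.9% and 29.1%.

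Genes that miR-124 is known to target were read as a group, since the series title names this microRNA. Of 23 published targets, 20 had lower means in the intervention group and 9 did not overlap, all lower, with a median of -0.18. Ptbp1, a splicing repressor that miR-124 lowers as neurons form, had 12, 13.3 and 10.9 FPKM in intervention and 15.6, 14.5 and 16.8 FPKM in experimental libraries (-0.35 ± 0.095, limma adjusted p = 0.205). Cebpa, a myeloid transcription factor, had 10.7, 9.0 and 9.25 FPKM in intervention and 12, 13.1 and 13 FPKM in experimental libraries (-0.37 ± 0.082, limma adjusted p = 0.129). Ctdsp1, a phosphatase that holds back neuronal genes, had 12.3, 10.8 and 9.98 FPKM in intervention and 10.8, 12.2 and 11.4 FPKM in experimental libraries, and overlapped (-0.059 ± 0.082). Efnb1, an ephrin, ran the other way with overlap (0.21 ± 0.14). Several targets, Cebpa among them, are genes of myeloid cells, whose markers were lower in the same libraries, and the part of cell content in this count was not tested.

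The host transcripts of miR-124 did not differ beyond their spread. Mir124-2hg had 5.80, 6.50 and 6.33 FPKM in intervention and 5.15, 6.04 and 5.50 FPKM in experimental libraries (0.14 ± 0.077, limma adjusted p = 0.680). Mir124a-1hg had 14.5, 17.4 and 17.5 FPKM in intervention and 22.2, 14.5 and 15.0 FPKM in experimental libraries (-0.040 ± 0.15, limma adjusted p = 0.979). The entries of the hairpins Mir124a-1, Mir124a-2 and Mir124a-3 stayed under 1 FPKM in every library. A table of long RNAs does not measure the mature microRNA, whether made by the cells or delivered.

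Evenness over the libraries was then described by the mean level of each list, as log2(FPKM + 1) over its tested members minus the mean of the 3 experimental libraries. Of 56 lists, 26 had all 3 intervention libraries below all 3 experimental ones, 1 had them above and 29 overlapped. The 26 included the neutrophil list by its 5 tested members, while 9 of its 15 entries had lower and 5 higher means. Intervention library 3 was lowest in 22 of the 26 and library 1 in 4. The lists share members and libraries, so that these counts describe the same 3 libraries many times over. Some tested members had no intervention library at 1 FPKM and reached the filter through the experimental libraries alone, which favoured a low intervention value. Besides interferon and monocyte genes, these were 2 each of the guanylate-binding and GTPase, leukocyte adhesion, Toll-like receptor and collagen lists, and 1 proliferation gene. Members with some intervention libraries at 1 FPKM, but too few to meet the filter, were not counted here. Ccl7, Ccr1, Cybb, Ifi211 and Steap4 are such members. The means were not taken without either kind.

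The interferon list was spread evenly, at -0.49, -0.42 and -0.57 in intervention libraries 1 to 3, and -0.039, -0.10 and 0.14 in experimental libraries. Endothelial markers were spread evenly too, at -0.32, -0.27 and -0.28 in intervention and 0.084, -0.074 and -0.010 in experimental libraries. The monocyte list stood at -0.50, -0.41 and -0.63 in intervention and 0.011, -0.024 and 0.013 in experimental libraries, with control libraries near -1.7. In these 3 lists each intervention library had most members below every experimental library. For interferon genes that held for 27, 24 and 26 of the 27 tested members, against 30.7%, 21.9% and 29.1% of all tested genes. Of the tested members, 3 interferon and 2 monocyte genes had no intervention library at 1 FPKM, while each endothelial gene had at least 1. Without one, a gene reached the filter through the experimental libraries alone, which favoured a low intervention value.

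Other lists leaned on intervention library 3. Fc receptor genes stood at -0.21, -0.30 and -0.60 in intervention and -0.064, 0.015 and 0.049 in experimental libraries. Proliferation genes stood at -0.28, -0.23 and -0.59 in intervention and -0.20, 0.045 and 0.16 in experimental libraries. Reactive astrocyte genes stood at -0.22, -0.25 and -0.54 in intervention and -0.17, 0.091 and 0.080 in experimental libraries. For proliferation and reactive astrocyte genes, intervention libraries 1 and 2 lay close to experimental library 1. Collagen and matrix genes leaned on library 1 instead, at -0.43, -0.19 and -0.21 in intervention and -0.052, -0.047 and 0.10 in experimental libraries, and the median over tested members was -0.19 without it, against -0.33 with it.

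**Figure D5:**
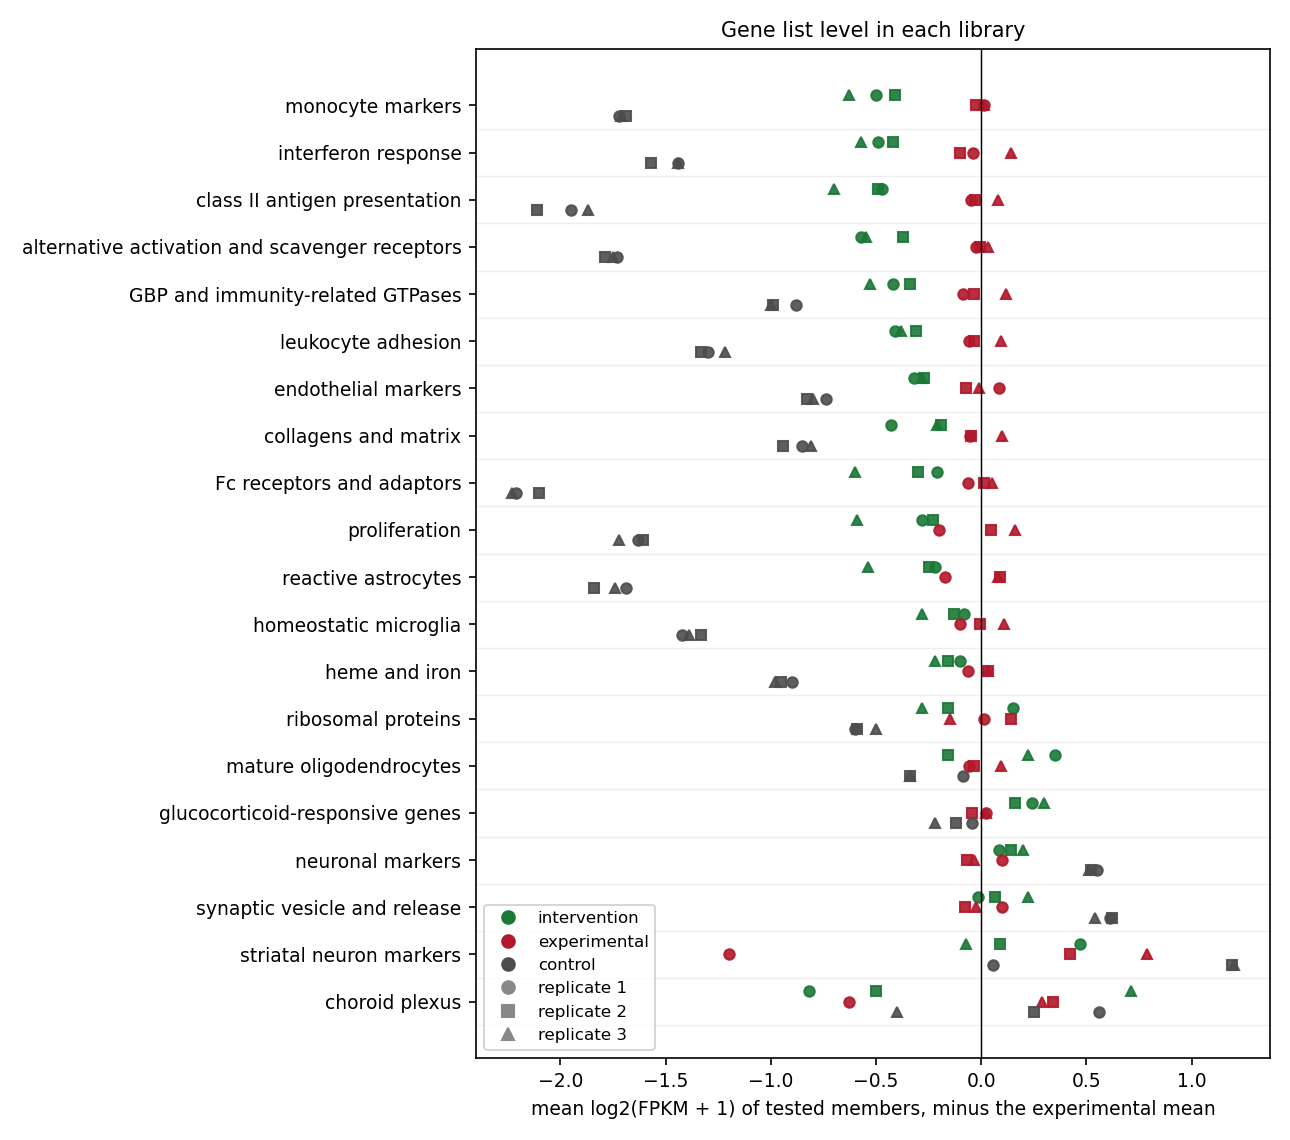
For 20 lists, the mean log2(FPKM + 1) of tested members in each library minus the experimental mean, with intervention in green, experimental in red, control in grey and the replicate number as the symbol. The 3 intervention libraries lie between the experimental and control libraries in the monocyte, interferon and endothelial rows, while striatal and choroid plexus rows spread widely within each group.

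Libraries also differed in markers of brain regions, and for striatal and choroid plexus markers the groups did not follow this. Striatal neuron markers stood at 0.47, 0.089 and -0.072 in intervention and -1.20, 0.42 and 0.79 in experimental libraries. Choroid plexus markers stood at -0.82, -0.50 and 0.71 in intervention and -0.63, 0.34 and 0.29 in experimental libraries. Thalamic markers stood at -0.030, 0.55 and 0.30 in intervention and -0.11, 0.044 and 0.067 in experimental libraries, and 8 of 11 had higher means. Interneuron markers stood at 0.39, 0.24 and 0.11 in intervention and -0.34, 0.21 and 0.13 in experimental libraries, and 11 of 13 had higher means. Ttr, the carrier protein of choroid plexus, had 207, 252 and 1156 FPKM in intervention and 288, 749 and 731 FPKM in experimental libraries. Penk, an opioid peptide gene of striatum, had 88.8, 67.9 and 51.7 FPKM in intervention and 10.3, 95.1 and 103 FPKM in experimental libraries. Experimental library 1 thus stood apart in striatal markers, and no list of striatal, cortical, thalamic, interneuron or choroid plexus markers had a member without overlap. On the first axis of variation of the 6 libraries (36.4% of the variance) the groups mixed, and they separated on the second (22.7%). The part of these markers in the results above was not tested.

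Markers of other blood cells were counted too. Of 15 neutrophil markers, 9 had lower and 5 higher means, with 4 wholly lower and 1 wholly higher, and 5 were tested. Csf3r, which microglia and monocytes also express, was apart at 6.68, 6.74 and 5.11 FPKM in intervention and 8.38, 8.63 and 10.3 FPKM in experimental libraries (-0.50 ± 0.11, limma adjusted p = 0.127). Ngp, a granule protein of neutrophils, lay wholly higher at 0.498, 0.150 and 0.129 FPKM in intervention and 0, 0 and 0.0189 FPKM in experimental libraries. The defining marker Ly6g was at 0 in all 6 libraries, and both genes are named after their values were seen. Of 17 lymphocyte markers, 11 had lower means and 3 lay wholly lower, and none of the 3 tested was without overlap. Of 9 red cell genes, 6 had lower means and 1 did not overlap. Their summed level ran from 65.4 to 84.3 FPKM in intervention and 76.3 to 107 FPKM in experimental libraries. Hba-a2, an alpha chain of haemoglobin, had 6.31, 4.62 and 7.59 FPKM in intervention and 8.18, 12.6 and 10.3 FPKM in experimental libraries (-0.66 ± 0.34, limma adjusted p = 0.616).

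Across the 9 libraries, 13408 to 14260 genes reached 1 FPKM and the FPKM sums ran from 303394 to 351195. The depth of the libraries is unknown, since the table holds no counts. No pair of libraries held the same values, with Spearman correlations of 0.975 to 0.981 among the intervention and 0.974 to 0.984 among the experimental libraries.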

How the data were processed

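The authors deposited 1 table, whose 9 library columns hold FPKM, per the file headers. Per the labels' protocols, total RNA came from a Qiagen RNeasy kit and went into SMARTer mRNA-seq libraries. The genome build was mm10, per the submitters' processing notes, while aligner, counter and annotation were not given in the sources used here. The filter kept entries that reached 1 FPKM in at least 3 of the 6 libraries. limma 3.58.1 (R 4.3.3, intensity trend) was fitted to log2(FPKM + 1) over all 9 libraries with 1 mean per group, which gave 6 residual and 3.55 prior degrees of freedom. The intervention minus experimental contrast had two-sided p-values, adjusted by Benjamini-Hochberg over 14296 genes, and a threshold of 0.05. Fold changes of low genes are understated on this scale. The code was tested on simulated data.

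The members, the gene lists and the rule for named genes were chosen with earlier results of these data known, and no test was made over a list. Named were the 8 genes with the smallest p in each direction among those without overlap, with a mean of at least 1 FPKM and no predicted-gene name. Of those past an unadjusted p of 0.05, the 5 with the largest difference in each direction were named too, and so were up to 4 members of a list with the smallest p and 1 that ran the other way. Hmox1, Gfap, Aqp4, Rbfox3, Ptbp1, Ctdsp1, Il1b, Tnf, Ccl2, H2-Ab1, Oas1a and the miR-124 host genes were named in any case. Positions are from GENCODE M21, where 96.8% of entries had a match, and promoter windows are from RefSeq (GRCm38.p6). Alternatives were a pseudocount of 0.1, no filter or a filter on all 6 libraries, TPM, quantile normalization, a fit of the 6 libraries, a replicate block and leaving out each library in turn.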

Additional observations from a re-analysis of the deposited data

How the results depend on the processing

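The number of genes past the limma threshold changed with most alternatives. Against 1 lower gene, 0 passed with a pseudocount of 0.1, without the filter, after rescaling to TPM, in a fit of the 6 libraries and with a replicate block, 13 passed under the stricter filter and 35 after quantile normalization, which also called 2 higher genes against 0. Leaving out a library gave 0 to 1 lower and 0 to 1 higher genes, which were B3gnt2 without intervention library 2, Clec4d without intervention library 3, Ccl2 without experimental library 1 and, as the higher gene, Ptgds without experimental library 2. Deviations from the group means had correlations of -0.169, 0.204 and -0.112 between same-numbered libraries, and of -0.404 to 0.431 between differently numbered ones. With 3 libraries a group, these values cannot show whether the replicate numbers pair the libraries. The replicate block left H2-Ab1 at a limma adjusted p of 0.181. At an unadjusted p under 0.05, 1608 lower and 858 higher genes were counted without the filter, and leaving out a library gave 717 to 1004 lower and 233 to 592 higher, with both lowest counts without experimental library 3. With a pseudocount of 0.1, the median log2 difference was -0.67 for interferon response, -0.60 for guanylate-binding and immunity-related GTPases, -0.50 for nucleic acid sensors, -0.57 for chemokines, -0.80 for monocyte markers, -0.75 for alternative activation, -0.26 for Toll-like receptors, -0.52 for leukocyte adhesion, -0.30 for matrix proteases and -0.24 for pericytes and smooth muscle. Without the filter, the median log2 difference was -0.28 for nucleic acid sensors, -0.32 for class II antigen presentation, -0.27 for chemokines, -0.45 for monocyte markers, -0.27 for alternative activation, -0.29 for leukocyte adhesion, -0.093 for red cells and -0.17 for neutrophils. On TPM, the median log2 difference was -0.61 for interferon response, -0.53 for chemokines, -0.72 for monocyte markers, -0.67 for alternative activation, -0.24 for Toll-like receptors and -0.45 for leukocyte adhesion. Leaving out a library gave medians of -0.65 to -0.40 for class II antigen presentation, -0.40 to -0.27 for chemokine receptors, -0.38 to -0.24 for cytokines and their receptors, -0.63 to -0.46 for alternative activation, -0.18 to -0.13 for Toll-like receptors, -0.27 to -0.10 for inflammasome and pyroptosis, -0.37 to -0.19 for collagens and matrix, -0.16 to -0.063 for heme and iron, -0.16 to -0.021 for antioxidant and ferroptosis, -0.083 to 0.012 for endoplasmic reticulum stress, 0.11 to 0.22 for glucocorticoid-responsive genes, 0.057 to 0.42 for thalamic neuron markers and -0.36 to 0.25 for lymphocytes. Of 104 tested genes named, 10 reached 0 or changed sign when a library was left out, with log2 differences of -0.079 to 0.15 for Psmb10, -0.015 to 0.10 for Cxcl14, -0.016 to 0.087 for Lifr, -0.019 to 0.24 for Vcan, -0.070 to 0.33 for Cd59a, -0.54 to 1.07 for Penk, -1.24 to 0.000 for Ttr, -0.14 to 0.15 for Mir124a-1hg, -0.058 to 0.19 for Rbfox3 and -0.13 to 0.003 for Ctdsp1, and the cause was not tested. TPM rescaling makes a pseudocount of 1 smaller relative to FPKM. No depth is known, and 3 libraries a group limit the precision.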
